A study of Mus musculus with 11 samples.

Results

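The 31 genes described here are chemokine ligands, the secreted proteins that direct the movement of leukocytes, as measured in mouse lung. They were taken by symbol from a list, and each is represented by the row of the deposited table that maps to that symbol alone and has the highest mean. All 31 of 31 were found, out of 19938 genes measured in all. The series asks what aspirin and triptolide do to lung expression in work on lung cancer suppression. Expression was read in lung tissue of 129S1 mice on 11 arrays, with 1 array per sample. There were 2 samples labelled untreated control, and 3 samples in each treated group. Dosing by gavage ran for 2 months on 5 days of each week. The aspirin dose was 4 mg and the triptolide dose 1 mg per kg of body weight, and the combination group had both. The treatment text of the labels lists PBS buffer where the sample titles say untreated control, so whether the controls were gavaged is not settled. Sex and age are not in the labels used here, nor do these say that replicates are separate animals. The p-values below therefore measure only the spread between these samples.

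Chemokines share a fold held by disulfide bonds and are classed as CC, CXC, CX3C or XC by the spacing of their first cysteines. They bind G protein-coupled receptors on leukocytes and form gradients on the sugars of endothelium and matrix. Inflammatory members are induced by NF-kB, STAT or interferon signalling and bring neutrophils, monocytes, eosinophils and effector T cells into the airway. Homeostatic members, such as those that place B and T cells in lymphoid tissue, are made without such a trigger. Aspirin blocks the cyclooxygenases that make prostaglandins. Triptolide is a diterpenoid from a medicinal vine that binds a helicase subunit of the general transcription factor TFIIH.

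Values are log2 levels, and no level of a gene is set against that of another, since probes differ in response. The lung markers Sftpc, a surfactant protein of alveolar type 2 cells, and Scgb1a1, the club cell secretoglobin, read from 13.62 to 14.27 and from 13.75 to 14.08 over the 11 arrays. Combination 1 stood apart from the rest, with a mean correlation across rows of 0.9533 to the other arrays where those ran from 0.9828 to 0.9884, and with the highest levels of erythroid and cell cycle markers. The mean of 3 Y-linked genes (Eif2s3y, Uty and Kdm5d) was between 5.67 and 6.73 on the control and combination arrays and on triptolide 1, and between 8.88 and 9.36 on the aspirin arrays and on triptolide 2 and 3. Xist, transcribed from the inactive X chromosome of females, was at 9.75 on triptolide 2, between its levels on the other arrays. Aspirin minus control and combination minus aspirin therefore cannot be told apart from the difference in these sex-linked genes, whereas the control and combination arrays match in them. The triptolide group held arrays of both levels. Its comparisons with the other groups, and the interaction of the 2 drugs, are thus also partly mixed with that difference. An adjustment for the Y-linked level rests mainly on triptolide 1 against triptolide 2 and 3, and so leans on 1 array. Fewer cells of a type and less RNA per cell cannot be told apart in whole lung either.

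Most ligands stood higher with the combination than in control, led by the B cell attractant Cxcl13, the monocyte and eosinophil attractants Ccl8 and Ccl11, and the interferon-induced Cxcl9, while the transmembrane ligands Cx3cl1 and Cxcl16 stood lower. Of the 31 ligands, 25 were above control and 6 below, with a median difference of 0.22 where the median over all genes was 0.01 and 52.8% of genes were above control. The groups were apart, with no overlap, in 34.8% of all genes: in 17 ligands every combination array was above every control array, against 14.2% of genes, and in 2 ligands every one was below, against 20.5%. At an unadjusted p under 0.05, which 14.0% of genes had, limma gave 10 ligands higher, against 3.41% of genes, and 2 lower, against 10.6%. None passed at an adjusted p under 0.05 over all genes, where the background was also 0% (limma, Benjamini-Hochberg), and the fit without moderation passed 0 as well. The smallest adjusted p among the ligands was 0.102. A fit that weighted the arrays passed 16 ligands beside 19.2% of all genes; its weights ran from 0.107 for combination 1 to 43.5 for aspirin 3, and their estimation stopped before it converged. Adjusting for the Y-linked level passed 2 ligands, Ccl8 and Ccl19, beside 0.481% of all genes. Without control 2 the number at an unadjusted p under 0.05 was 6 of the 31, in place of 12, and without combination 1 it was 15.

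**Figure D1:**
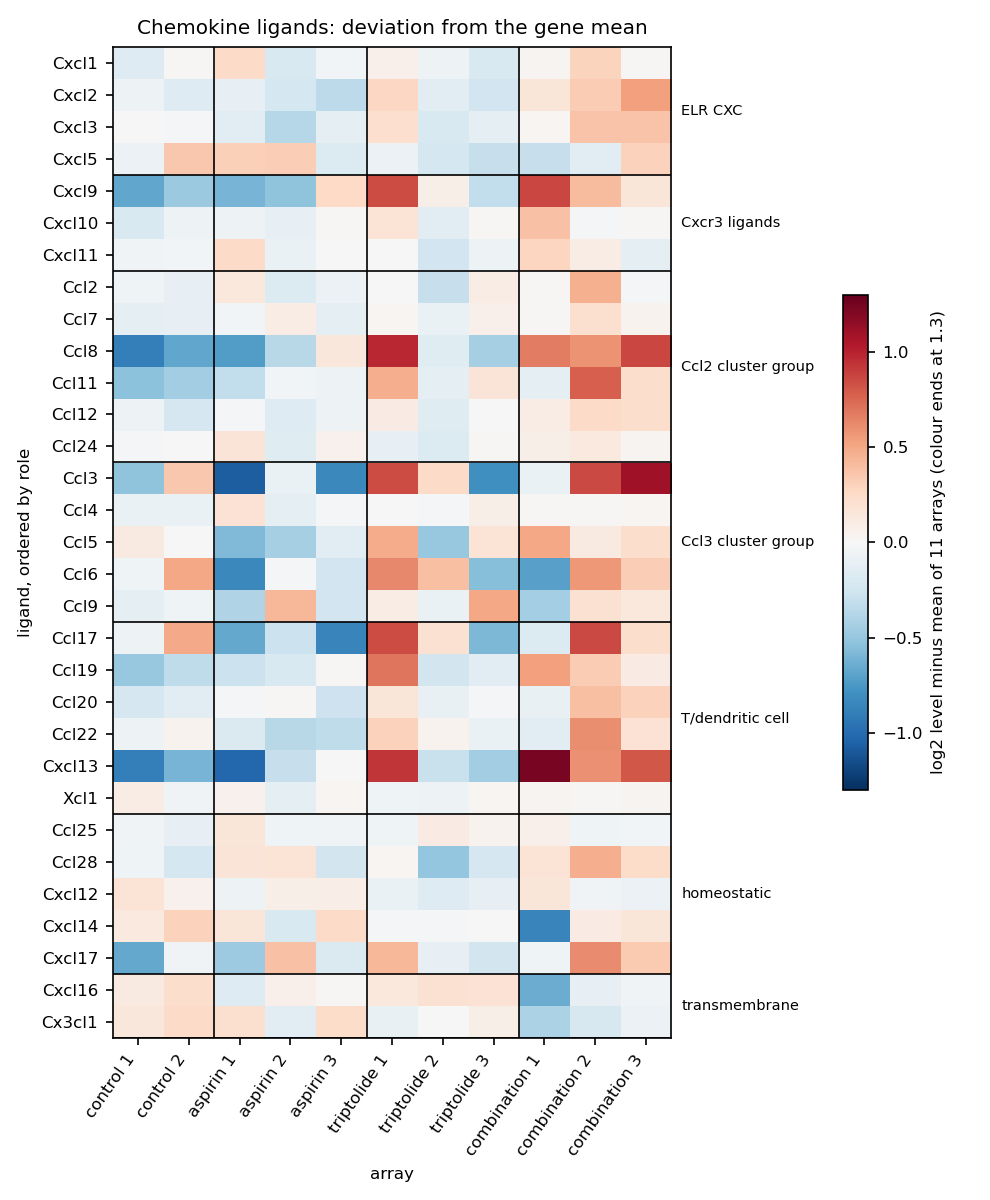
Each cell is a ligand's log2 level on an array minus its mean over the 11 arrays (red above, blue below), with ligands in rows grouped by role and arrays in columns grouped by treatment. Cxcl9, Ccl8, Ccl19 and Cxcl13 are red on triptolide 1 and on the 3 combination arrays and blue in control, while Xcl1, Ccl4 and Ccl25 hardly vary.

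Cxcl13 and Ccl19 organise lymphoid tissue: Cxcl13 calls B cells through Cxcr5, and Ccl19 calls T cells and dendritic cells through Ccr7. Cxcl13 (row 10523359) read 9.32 and 9.61 in control, 9.19, 9.91 and 10.21 with aspirin, 11.14, 9.92 and 9.76 with triptolide, and 11.44, 10.8 and 11.02 with the combination. All 3 combination arrays were above control and aspirin, and only triptolide 1 among the single-drug arrays reached their range. The combination was 1.62 ± 0.40 (log2 ± SE) above control, with a 95% interval from 0.75 to 2.5 and a limma adjusted p of 0.104. It was 1.31 ± 0.35 above aspirin (limma adjusted p of 0.183) and 0.81 ± 0.35 above triptolide (0.364), the latter 1.25 without triptolide 1. With the Y-linked adjustment these were 0.25 and 0. Among arrays of low Y-linked level, the combination differed from triptolide 1 by -0.05 in Cxcl13, and triptolide 1 was 1.68 above control. Ccl19 read 8.88 and 9.04 in control, 9.09, 9.17 and 9.39 with aspirin, 10.07, 9.13 and 9.23 with triptolide and 9.91, 9.7 and 9.48 with the combination. Its combination and control arrays did not overlap, nor did its combination and aspirin arrays. The combination was 0.74 ± 0.24 above control (limma adjusted p of 0.203). Ccl19 has 5 rows in the table, which may stand for near-identical copies of the gene and are uncertain for that reason, and they put this difference between 0.68 and 0.77. The 250 bases before the start of Cxcl13 are shown because the largest difference of the list belongs to this gene; coordinates are on GRCm38.p6, bases run 5′ to 3′ on the gene's strand, and capitals mark the motif TATAAA on that strand. Letters are RefSeq's, not those of the 129S1 strain.
Cxcl13, chr5:95956689-95956938, forward strand: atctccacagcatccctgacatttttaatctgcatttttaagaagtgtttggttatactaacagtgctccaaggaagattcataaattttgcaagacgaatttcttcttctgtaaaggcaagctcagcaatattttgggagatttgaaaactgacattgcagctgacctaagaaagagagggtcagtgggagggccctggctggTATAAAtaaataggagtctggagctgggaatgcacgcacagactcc

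The 3 ligands of Cxcr3, a receptor of effector T and natural killer cells, are induced by interferons. Cxcl9 read 8.01 and 8.2 in control, 8.08, 8.16 and 8.94 with aspirin, 9.53, 8.76 and 8.36 with triptolide and 9.55, 9.09 and 8.84 with the combination. Each triptolide and combination array was above both controls, whereas aspirin 3 stood within the combination range and the other aspirin arrays within the control range. The combination was 1.06 ± 0.34 above control (limma adjusted p of 0.197) and triptolide 0.78 ± 0.34 (adjusted p of 1 by limma). Cxcl10 read from 7.95 to 8.53 over all arrays and was 0.26 ± 0.13 higher with the combination than in control, with no overlap. Cxcl11 read from 7 to 7.53, and its groups overlapped. The window before the Cxcl9 start is shown as that of the member of this trio with the widest range. Capitals mark TATAAA, which begins 195 bases before the start here and 46 before that of Cxcl13.
Cxcl9, chr5:92328080-92328329, reverse strand: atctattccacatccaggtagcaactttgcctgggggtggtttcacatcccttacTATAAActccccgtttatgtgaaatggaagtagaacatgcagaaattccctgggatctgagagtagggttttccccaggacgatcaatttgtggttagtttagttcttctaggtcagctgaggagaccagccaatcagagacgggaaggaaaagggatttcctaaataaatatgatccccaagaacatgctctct

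The neighbouring genes Ccl2, Ccl7, Ccl11, Ccl12 and Ccl8 encode attractants of monocytes, basophils and eosinophils, and Ccl24 encodes another eosinophil ligand of Ccr3. All 6 were above control with the combination, by a median of 0.28, where 52.8% of all genes were above, and 3 of them at an unadjusted p under 0.05, beside 3.41% of genes on the higher side. Ccl8 (row 10379535), which calls monocytes and Th2 cells, read 7.19 and 7.41 in control, 7.36, 7.72 and 8.23 with aspirin, 9.06, 7.93 and 7.65 with triptolide and 8.75, 8.67 and 8.95 with the combination. The combination arrays had an SD of 0.14 and lay above every control and aspirin array, and triptolide 1 was above them all. Ccl8 was 1.49 ± 0.36 higher with the combination than in control (95% interval 0.7 to 2.28, limma adjusted p of 0.102) and 1.02 ± 0.32 higher than with aspirin (0.24). Triptolide alone was 0.91 ± 0.36 above control (adjusted p of 1 by limma), and the aspirin and control arrays overlapped at a difference of 0.47 ± 0.36. Ccl11, eotaxin, read 8.68 and 8.76 in control, 8.89, 9.18 and 9.15 with aspirin, 9.68, 9.1 and 9.38 with triptolide and 9.08, 9.99 and 9.44 with the combination. Every treated array was above both controls in Ccl11, by 0.35 ± 0.24 for aspirin, 0.67 ± 0.24 for triptolide and 0.78 ± 0.24 for the combination, with limma adjusted p of 1, 1 and 0.174.

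Ccl12, a mouse ligand of Ccr2 on monocytes, read 6.53 and 6.37 in control, 6.58, 6.43 and 6.53 with aspirin, 6.7, 6.44 and 6.59 with triptolide and 6.69, 6.84 and 6.82 with the combination. The combination arrays were above control and aspirin, and combination 1 was just under triptolide 1. The difference from control was 0.33 ± 0.10 and that from aspirin 0.27 ± 0.09, at limma adjusted p of 0.186 and 0.283. Ccl2, the main monocyte attractant, read 7.7 and 7.65 in control and 7.77, 8.22 and 7.74 with the combination. Its groups did not overlap, but the difference of 0.23 ± 0.16 was smaller than the 0.27 SD among the combination arrays. Ccl7 differed by 0.19 ± 0.10 and Ccl24 by 0.08 ± 0.11. The windows of the neighbours Ccl12 and Ccl8 are shown because both ligands are among the 4 with the smallest p against control; capitals mark TATAAA.
Ccl12, chr11:82101595-82101844, forward strand: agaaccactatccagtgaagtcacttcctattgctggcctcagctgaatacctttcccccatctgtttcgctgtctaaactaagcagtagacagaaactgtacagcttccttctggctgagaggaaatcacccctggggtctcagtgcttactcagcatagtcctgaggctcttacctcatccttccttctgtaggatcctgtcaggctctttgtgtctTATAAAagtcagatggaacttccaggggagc
Ccl8, chr11:82114935-82115184, forward strand: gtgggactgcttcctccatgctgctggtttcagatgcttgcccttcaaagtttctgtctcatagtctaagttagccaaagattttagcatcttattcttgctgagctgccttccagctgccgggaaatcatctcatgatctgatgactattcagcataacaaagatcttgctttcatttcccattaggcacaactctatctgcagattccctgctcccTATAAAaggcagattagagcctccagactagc

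**Figure D2:**
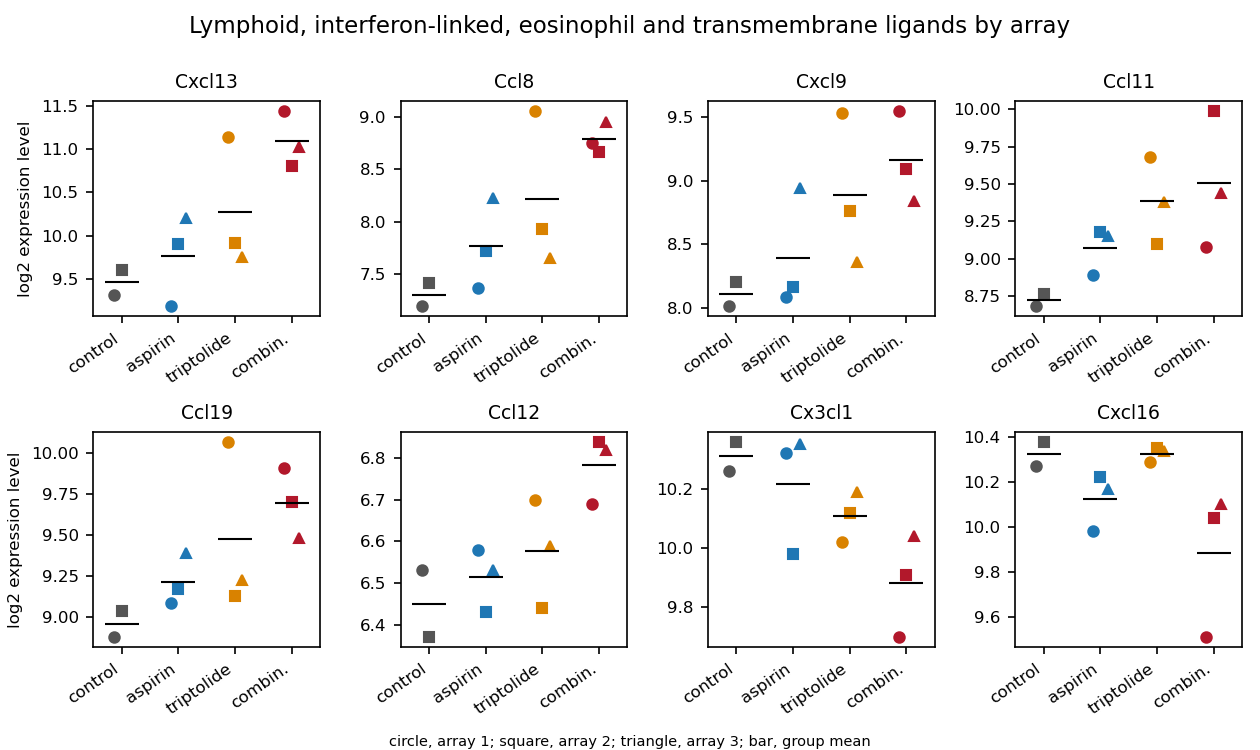
Log2 expression level (y axis, not starting at 0) of 8 ligands on each array, by treatment group (x axis), with a bar at the group mean. The combination arrays of Cxcl13, Ccl8, Cxcl9, Ccl11, Ccl19 and Ccl12 lie above both controls and those of Cx3cl1 and Cxcl16 below, and triptolide 1 (circle) is the highest triptolide array of the first 6.

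Cx3cl1 and Cxcl16 are the 2 members made as membrane-bound proteins, which tether leukocytes and are shed by proteases; Cx3cl1 acts on the monocyte receptor Cx3cr1 and Cxcl16 on Cxcr6 of T cells. Cx3cl1 read 10.26 and 10.36 in control, 10.32, 9.98 and 10.35 with aspirin, 10.02, 10.12 and 10.19 with triptolide and 9.7, 9.91 and 10.04 with the combination. Triptolide and combination arrays were each below both controls, and aspirin overlapped all groups. The combination differed from control by -0.43 ± 0.13 (95% interval -0.72 to -0.13, limma adjusted p of 0.188) and from aspirin by -0.33 ± 0.12 (0.313). Cxcl16 read 10.27 and 10.38 in control, 9.98, 10.22 and 10.17 with aspirin, 10.29, 10.35 and 10.34 with triptolide and 9.51, 10.04 and 10.1 with the combination. The triptolide arrays stayed in the control range and the combination arrays lay below both groups, with combination 1 lowest. The difference was -0.44 ± 0.16 from control and -0.44 ± 0.14 from triptolide, at limma adjusted p of 0.235 and 0.353, and without combination 1 each was -0.26. Endothelial cells are a source of Cx3cl1, and 11 of 12 endothelial markers were below control in the combination, with list levels (mean log2 deviations from each gene's mean over all arrays) of -0.56, -0.34 and -0.21 on its arrays and 0.37 and 0.29 in control. Also below control were 8 of 8 alveolar type 1, 10 of 10 alveolar type 2, 10 of 10 fibroblast and pericyte and 5 of 5 mesothelial markers. All 10 B and plasma cell markers were above control, as were 52.8% of all genes. The part of any of these cell types in the result was not tested.

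**Figure D3:**
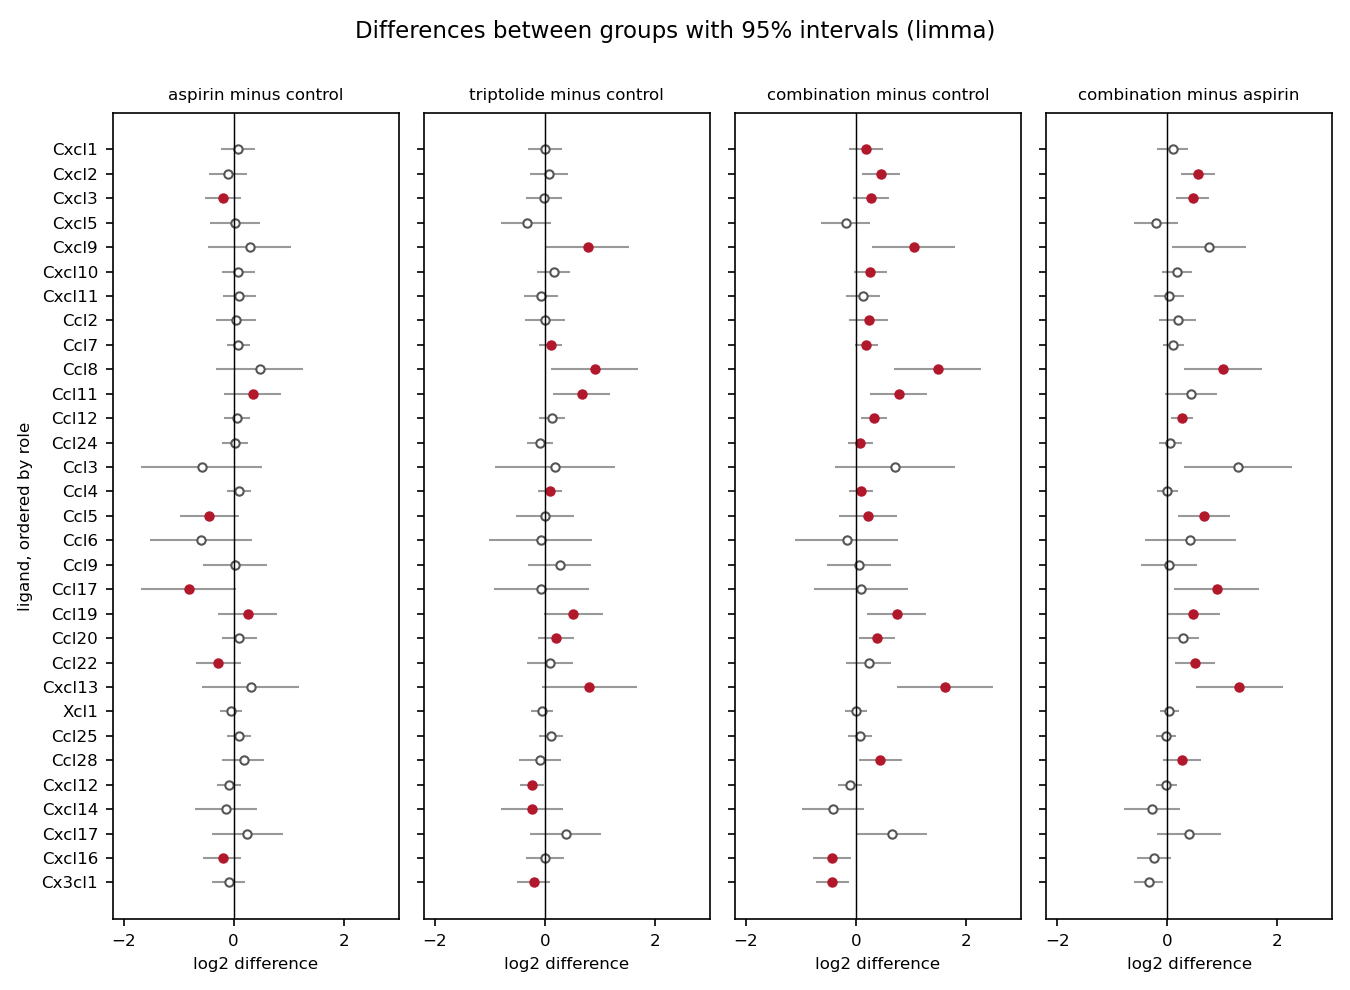
Log2 difference (x axis) of each ligand (y axis, by role) in 4 comparisons, with 95% intervals from the limma fit; filled red points are ligands whose groups do not overlap, open points those whose groups do. Ccl8 and Cxcl13 have the largest differences in the combination against control, at 1.49 and 1.62.

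The CXC ligands Cxcl1, Cxcl2, Cxcl3 and Cxcl5 carry a glutamate-leucine-arginine motif and call neutrophils through Cxcr2; Cxcl1, Cxcl2 and Cxcl3 are known targets of NF-kB in macrophages and epithelium. Their start regions are shown because Cxcl2 and Cxcl3 have the smallest and the third smallest p in the combination against aspirin, while Cxcl1, beside Cxcl2 on the chromosome, differs less. Capitals mark matches to the NF-kB motif. All 3 windows hold the same run, GGGAATTTCCC, which matches on both strands in overlapping positions, beginning 71 bases before the start of Cxcl1, 97 before Cxcl2 and 73 before Cxcl3.
Cxcl1, chr5:90890995-90891244, forward strand: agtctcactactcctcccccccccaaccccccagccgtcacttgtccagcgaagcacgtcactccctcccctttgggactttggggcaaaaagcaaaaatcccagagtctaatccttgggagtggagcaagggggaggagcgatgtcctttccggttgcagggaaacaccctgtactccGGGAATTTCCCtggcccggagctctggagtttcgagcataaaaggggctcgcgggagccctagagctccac
Cxcl2, chr5:90903649-90903898, forward strand: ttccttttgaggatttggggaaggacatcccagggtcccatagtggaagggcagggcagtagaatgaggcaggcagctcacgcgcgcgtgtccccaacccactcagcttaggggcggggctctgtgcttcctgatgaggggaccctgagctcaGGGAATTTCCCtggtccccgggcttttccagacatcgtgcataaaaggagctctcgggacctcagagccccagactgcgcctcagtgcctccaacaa
Cxcl3, chr5:90785851-90786100, forward strand: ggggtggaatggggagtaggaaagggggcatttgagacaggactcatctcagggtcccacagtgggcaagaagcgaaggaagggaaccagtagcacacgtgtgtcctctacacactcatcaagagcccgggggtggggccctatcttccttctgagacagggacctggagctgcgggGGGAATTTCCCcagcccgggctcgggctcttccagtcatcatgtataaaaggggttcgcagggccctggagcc
The motif occurs in 6 of the 22 windows found for the ligands, those of Ccl9, Ccl20, Cxcl1, Cxcl2, Cxcl3 and Cxcl10, and in 7.25% of all 32851 windows of that length. Windows were found for 21 of the 31 ligands. The core of the interferon response motif (GAAA, any 2 bases, GAAA) is in 3 windows (Ccl19, Cxcl10 and Cxcl14) against 2.98% of all, the STAT motif TTCNNNGAA in 2 (Ccl17 and Cxcl14) against 7.02%, and TATAAA in 8 against 12.4%, each on either strand.

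Cxcl2 read 7.01 and 6.91 in control, 6.97, 6.85 and 6.74 with aspirin, 7.35, 6.94 and 6.83 with triptolide and 7.23, 7.41 and 7.61 with the combination. The combination arrays were above every control and aspirin array, by 0.46 ± 0.16 on average from control and 0.56 ± 0.14 from aspirin (limma adjusted p of 0.226 and 0.167). The difference from triptolide was 0.37 ± 0.14, with overlap through triptolide 1 (limma adjusted p of 0.353). Cxcl3 read 7.21 and 7.19 in control, 7.07, 6.85 and 7.1 with aspirin, 7.43, 7.02 and 7.09 with triptolide and 7.24, 7.59 and 7.59 with the combination. Aspirin arrays were all below control and combination arrays all above it, at -0.20 ± 0.15 and 0.27 ± 0.15 (limma adjusted p of 1 and 0.458), and the combination was 0.47 ± 0.13 above aspirin (0.206). Cxcl1 read from 8.17 to 8.65 over the 11 arrays and differed between combination and aspirin by 0.10 ± 0.13, with overlap. Cxcl5, an epithelial member, read from 6.81 to 7.46, and its combination arrays were not apart from any other group. The list level of neutrophil markers, Cxcr2 among them, had its high array elsewhere. It was 2.69 on aspirin 2 and between -0.57 and 0.47 on the other arrays. Within the list, Ltf was highest on combination 2, at 10.38 against 9.73 on aspirin 2. Camp was highest on combination 1, at 8.4 against 8.21 on aspirin 2, and all other members were highest on aspirin 2. Cxcr2 read 11.5 on aspirin 2 and from 7.65 to 9.51 on the other arrays, and was named after its values were seen.

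Ccl3, Ccl17 and Ccl22, products of macrophages and dendritic cells, each had a lower mean with aspirin than with the combination, and none passed after adjustment. Ccl3, a macrophage inflammatory protein that binds Ccr1, read 8.3 and 9.18 in control, 7.75, 8.74 and 7.99 with aspirin, 9.67, 9.08 and 8.03 with triptolide and 8.74, 9.68 and 9.93 with the combination. Its pooled SD within groups was 0.66, larger than that of 98.9% of genes. The combination was 1.29 ± 0.44 above aspirin (limma adjusted p of 0.287), with aspirin 2 just reaching combination 1; adjusted for the Y-linked level it was 0.40. Ccl17, which calls Th2 cells through Ccr4, read 9.26 and 9.82 in control, 8.66, 9.04 and 8.47 with aspirin, 10.17, 9.52 and 8.74 with triptolide and 9.15, 10.18 and 9.55 with the combination. Every aspirin array was below both controls and below the combination, by -0.82 ± 0.39 from control (adjusted p of 1 by limma), while the combination was 0.90 ± 0.35 above aspirin (0.35). Adjusted for the Y-linked level both Ccl17 differences turned, to 0.41 from control and to -0.18 for the combination against aspirin, and without control 2 the first was -0.54. Ccl22, the other Ccr4 ligand, read 7.84 and 7.95 in control, 7.72, 7.54 and 7.58 with aspirin, 8.2, 7.95 and 7.82 with triptolide and 7.76, 8.51 and 8.09 with the combination. Aspirin was below all the other groups without overlap: it differed from triptolide by -0.37 ± 0.17, and the combination was 0.50 ± 0.17 above it (limma adjusted p of 0.96 and 0.268). The latter was 0.31 without combination 2 and 0.08 with the Y-linked adjustment. Dendritic cell markers were at -0.12, -0.26 and -0.10 with aspirin and between -0.08 and 0.22 elsewhere, with 10 of 11 higher in the combination than with aspirin; their part was not tested.

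Ccl5, made by T and natural killer cells and a ligand of several CC receptors, read 10.26 and 10.14 in control, 9.57, 9.71 and 9.99 with aspirin, 10.62, 9.65 and 10.32 with triptolide and 10.64, 10.26 and 10.37 with the combination. The aspirin arrays were below control and below the combination, and triptolide 2 lay among them. The aspirin difference from control was -0.44 ± 0.24 and the combination was 0.67 ± 0.21 above aspirin (limma adjusted p of 1 and 0.254). With the Y-linked adjustment the first turned to 0.20 and the second was 0.09. T and natural killer cell markers were at -0.11, -0.16 and -0.13 with aspirin, -0.25 on triptolide 2, and between -0.01 and 0.24 elsewhere, with 11 of 11 higher in the combination than with aspirin. Their part was not tested. Ccl6, an alveolar macrophage product, read 11.9 and 12.46 in control, 11.12, 11.94 and 11.71 with aspirin, 12.58, 12.35 and 11.4 with triptolide and 11.25, 12.52 and 12.28 with the combination, with overlap in all comparisons and a pooled SD within groups of 0.56. Alveolar macrophage markers were at 0.02 and 0.19 in control, -0.34, 0.13 and -0.21 with aspirin, 0.39, 0.06 and -0.16 with triptolide and -0.54, 0.34 and 0.13 with the combination, and their part in Ccl6 was not tested. Car4 is a member of both this list and the endothelial list. The macrophage ligands Ccl9 and Ccl4 read from 8.9 to 9.84 and from 7.46 to 7.76, and differed between combination and aspirin by 0.04 ± 0.23 and 0 ± 0.09. Ccl20, which calls Th17 cells and dendritic cells through Ccr6, was 0.39 ± 0.15 above control with the combination and read from 7.76 to 8.42 over all arrays. Xcl1, a ligand of cross-presenting dendritic cells, read from 7.26 to 7.48, a range larger than that of 3.50% of genes.

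**Figure D4:**
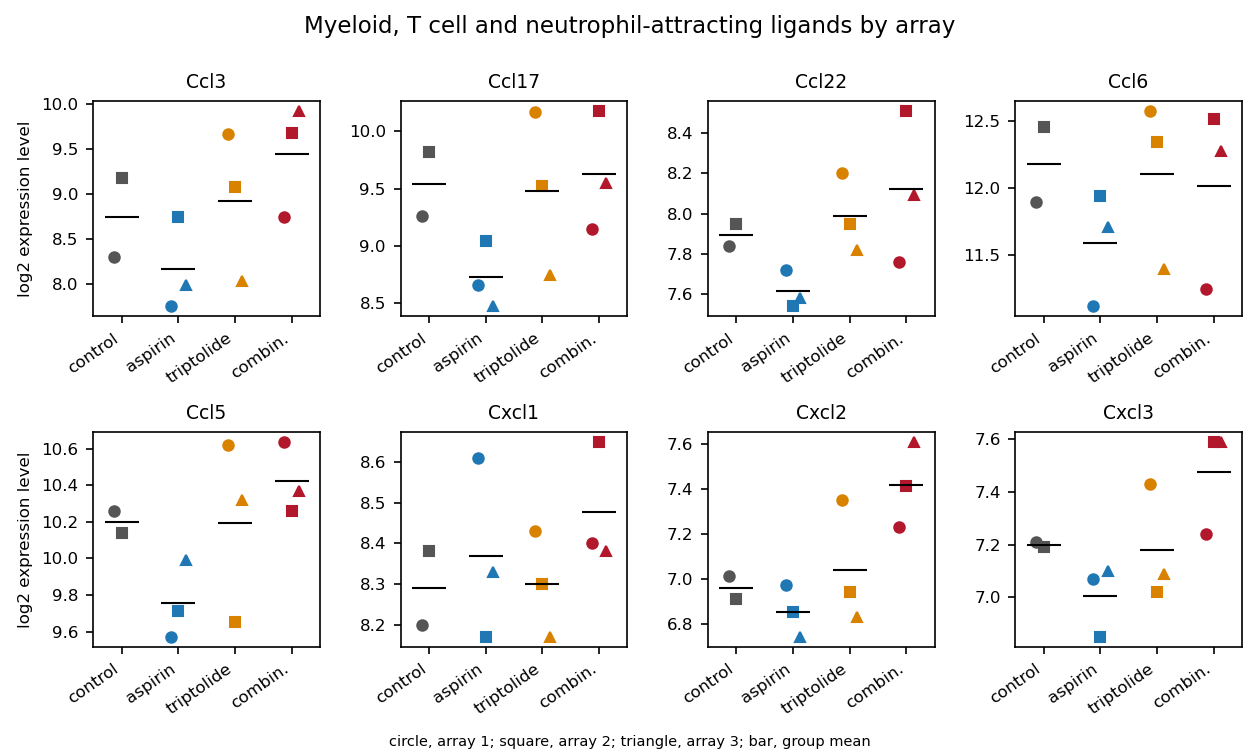
Log2 expression level (y axis, not starting at 0) of 8 ligands on each array, by treatment group (x axis), with a bar at the group mean. Aspirin arrays of Ccl17, Ccl22, Ccl5 and Cxcl3 lie below both controls, and the arrays of Ccl3 and Ccl6 spread widely within each group.

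The epithelial and stromal ligands showed no common direction. Cxcl12, which retains leukocytes and progenitors through Cxcr4, read 10.49 and 10.37 in control, 10.25, 10.39 and 10.4 with aspirin, 10.23, 10.15 and 10.21 with triptolide and 10.47, 10.27 and 10.24 with the combination. Triptolide arrays were below both controls, by -0.24 ± 0.10 (adjusted p of 1 by limma), and combination 1 stood at the control level. Ccl28, a mucosal ligand of antibody-secreting cells, read 6.91 and 6.73 in control, 7.13, 7.14 and 6.72 with aspirin, 6.99, 6.46 and 6.74 with triptolide and 7.14, 7.43 and 7.2 with the combination. The combination arrays were above control and triptolide, by 0.44 ± 0.17 and 0.53 ± 0.16 (limma adjusted p of 0.286 and 0.353). They were above aspirin as well, by 0.27 ± 0.16 (limma adjusted p of 0.537), with combination 1 only just above aspirin 2. Cxcl17, made by airway epithelium, read 9.69 and 10.31 in control, 9.88, 10.73 and 10.16 with aspirin, 10.78, 10.25 and 10.11 with triptolide and 10.3, 10.97 and 10.69 with the combination. Combination 1 was just within the control range, and the difference was 0.65 ± 0.29 (limma adjusted p of 0.354), but 0.34 without control 1. Club and secretory cell markers were at 0.63, 1.51 and 0.08 with the combination and -0.49 and -0.31 in control, with 9 of 10 above control, and their part in Cxcl17, Ccl20 and Ccl28 was not tested. Cxcl14 read 10.95 and 11.13 in control, 10.98, 10.63 and 11.08 with aspirin, 10.81, 10.81 and 10.83 with triptolide and 9.97, 10.93 and 10.98 with the combination. Combination 1 was alone in its low Cxcl14, and the triptolide arrays were nearly equal. Ccl25, which calls gut-homing T cells, read from 8.16 to 8.43 in its higher row, and its combination and control arrays overlapped; its other row gave -0.04 for that difference where the higher row gave 0.07.

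Each single drug was set against the same controls. In aspirin minus control 19 ligands were above 0 and 12 below, where 48.3% of all genes were above, and the median was 0.04 against 0 over all genes. The groups were apart in 26.0% of genes, in 2 ligands upward and 5 downward beside 10.0% and 16.0% of all genes. At an unadjusted p under 0.05 there were 0 ligands, where 3.05% of genes were, 1.35% higher and 1.71% lower. That number was 6 with the Y-linked adjustment, at a median of 0.28, 4 in a fit of only the groups compared and 12 with array weights. It was 2 without combination 1. In triptolide minus control 19 were above 0 and 12 below, where 45.0% of genes were above, with a median of 0.08 against -0.01. Apart were 23.2% of genes, with 8 ligands upward and 3 downward beside 9.92% and 13.3% of genes. The 4 ligands with an unadjusted p under 0.05 stood against 2.81% of genes, with Ccl11, Ccl8 and Cxcl9 higher (1.16% of genes) and Cxcl12 lower (1.66%). The number was 0 without control 1, 2 without control 2 and 1 without triptolide 1, and other settings gave 1 to 13. Without triptolide 1 the differences were 0.49 in Ccl8 and 0.46 in Cxcl9, and the median turned to -0.03. With the Y-linked adjustment that median was 0.31. None passed in either comparison after adjustment in limma, with a background of 0%. These comparisons and that of the combination share the 2 control arrays.

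Adding triptolide to aspirin, read as the combination against aspirin, put 24 of the 31 ligands higher, where 50.0% of genes were, with a median of 0.27 against 0 over all genes. The groups were apart in 15.3% of genes, and in 10 ligands every combination array was above every aspirin array, beside 5.47% of genes, and in 0 were they all below, beside 9.86%. At an unadjusted p under 0.05, as in 11.6% of genes, there were 10 higher, against 3.43% of genes, and 1 lower, Cx3cl1, against 8.22%. In limma 0 passed after adjustment, as for all genes (0%). Adjusted for the Y-linked level, the number at an unadjusted p under 0.05 was 0 of the 31 rather than 11, the median was -0.04, and the estimates of Ccl8, Ccl17 and Cxcl9 were below 0. Within groups that level differed mainly between triptolide 1, at 6.55, and triptolide 2 and 3, at 9.36 and 9.08. Without aspirin 1 the number was 7. Adding aspirin to triptolide put 24 ligands higher too, where 53.3% of genes were, by a median of 0.17 against 0.02. Apart were 17.9% of genes, with 3 ligands upward beside 8.36% of genes and 1 downward beside 9.53%. Of 13.6% of genes with an unadjusted p under 0.05, 3.50% of all genes were higher, as were 4 ligands, and 10.1% lower, as was 1 ligand, and 0 ligands passed after adjustment in limma (0% of genes). The number of ligands at that unadjusted p, 5 in all, was 8 without triptolide 1, 2 without either of the other triptolide arrays and 3 without either control, and other settings gave 1 to 19. With the Y-linked adjustment it was 1, at a median of -0.03. Ccl28 and Cxcl16 had the smallest p. Within arrays of low Y-linked level, where triptolide 1 is the only triptolide array, Ccl28 was 0.27 higher and Cxcl16 differed by -0.41 in the combination, while Ccl8 differed by -0.27 and Cxcl9 by -0.37. Triptolide 1 was thus above the combination mean in Ccl8 and Cxcl9.

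Aspirin against triptolide had 20 ligands lower and 11 higher, where 53.1% of genes were higher. Apart were 9.89% of genes, with 2 ligands downward beside 5.89% of genes and 1 upward beside 4.00%. Ccl22 was the 1 ligand at an unadjusted p under 0.05, where 3.31% of genes were, 1.52% higher and 1.79% lower. That number ran from 0 to 6 with each array left out, highest without triptolide 3. Within arrays of high Y-linked level, the 3 aspirin arrays differed from triptolide 2 and 3 by -0.27 in Ccl22, -0.40 in Ccl17 and -0.23 in Ccl5. The interaction, the combination minus both single drugs plus control, was above 0 in 22 of 31 ligands and in 52.0% of genes. All 4 neutrophil attractants were above 0, Cxcl3 by 0.49 ± 0.20 and Cxcl2 by 0.48 ± 0.21, and these 2 alone had an unadjusted p under 0.05, against 3.42% of genes, 1.19% above 0 and 2.23% below. The limma adjusted p was 0.895 for both. With the Y-linked adjustment both turned, Cxcl3 to -0.21 and Cxcl2 to -0.23, and the median of the 31 interactions was -0.34 in place of 0.10. The number at an unadjusted p under 0.05 was 6 without triptolide 1, 5 without combination 1, 2 without aspirin 1 or aspirin 3, and 0 without any one of the other arrays. In neither the interaction nor aspirin against triptolide did a ligand pass after adjustment in limma (0% of genes).

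The ligands varied more between arrays than most genes, with a median range over the 11 arrays of 0.87 against 0.52 for all genes. The range exceeded 1 in 11 ligands, where 11.2% of all genes did, and was under 0.5 in 8, where 47.3% were. Triptolide 1 was the highest triptolide array in 21 of the 31 ligands (67.7%), against 33.9% of all genes, and control 2 the higher control in 22 (71.0%), against 49.5%. Cxcl9, Cxcl10, Cxcl13 and Ccl19 shared the same highest array in all 4 groups (control 2, aspirin 3, triptolide 1 and combination 1), an order shared by 104 genes (0.522%). A further set with a common order was Ccl6, Ccl11, Ccl17, Ccl20 and Cxcl17, highest on control 2, aspirin 2, triptolide 1 and combination 2, which 1.48% of genes shared. No list was tested from these orders, since they were chosen after the values were seen.

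Among the receptors that read these ligands, 17 of 18 listed were measured. With the combination 13 were above control and 4 below, by a median of 0.16, and 3 had an unadjusted p under 0.05, all higher, beside 14.0% of all genes and 3.41% on the higher side. The 3 were Cxcr3, at 0.34 ± 0.11, Ccr8, at 0.48 ± 0.19, and Cxcr5, at 0.81 ± 0.36 (limma adjusted p of 0.184, 0.296 and 0.348). Only Cxcr5 overlapped control. Cxcr3 and Ccr8 were named after their values were seen. Cxcr5, the receptor for Cxcl13 on B cells, read 7.17 and 6.85 in control, 6.93, 6.68 and 7.25 with aspirin, 7.54, 6.8 and 7.07 with triptolide and 8.61, 7.7 and 7.15 with the combination, and was named here after its values were seen. Its order over the combination arrays was that of the B and plasma cell markers, at 0.95, 0.64 and 0.31, where control was at -0.40 and -0.38 and triptolide 1 at 0.45. All 10 of those markers were above control with the combination. The part of B cells in the Cxcl13 and Ccl19 differences was not tested. Aspirin and triptolide each left 0 receptors past the adjusted threshold, with 9 and 11 of 17 above control.

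The atypical receptors take up chemokines without driving migration. Ccrl2, which binds chemerin and is listed with them, differed by -0.52 ± 0.11 with the combination and -0.47 ± 0.11 with triptolide, at limma adjusted p of 0.0846 and 1. Ackr3, which scavenges Cxcl12, read 8.4 and 8.46 in control and 7.88, 8.02 and 8.01 with the combination, at -0.46 ± 0.11 (limma adjusted p of 0.0922), and Ackr4, which scavenges Ccl19, was at -0.43 ± 0.14 with triptolide (adjusted p of 1 by limma). All 5 atypical receptors were below control with triptolide, 4 of 5 with the combination and 3 of 5 with aspirin. In each of these comparisons 3 of the 5, Ccrl2, Ackr3 and Ackr4, were lower at an unadjusted p under 0.05 (limma). The shares of all genes were 1.66%, 10.6% and 1.71%. These comparisons all subtract the same 2 control arrays, so they are not separate results. Aspirin differed from control by -0.28 in Ccrl2, -0.26 in Ackr3 and -0.33 in Ackr4. Of the platelet chemokines, Pf4 was 1.61 ± 0.48 above control with aspirin (adjusted p of 1 by limma), and read 9.22, 11.2 and 9.92 there against 8.47 and 8.54. Platelet markers, Pf4 among them, were at 0.14, 1.53 and 0.59 on those arrays and at -0.47 and -0.48 in control, and their part was not tested.

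Of 21 measured cytokines and receptors that induce chemokines, 13 were above control with the combination and 8 below, with a median of 0.05. Tnf, an inducer of NF-kB, was 0.28 ± 0.09 higher with aspirin than with triptolide, and Il6 differed by -0.45 ± 0.14 in the same comparison, at a limma adjusted p of 0.96 for each. Il4ra and Icam2, the receptor chain of interleukin 4 and an endothelial adhesion molecule, were lower with the combination than with aspirin, at -0.49 ± 0.12 and -0.56 ± 0.15 (limma adjusted p of 0.145 and 0.183). Of the enzymes and proteoglycans that cleave or hold chemokines 8 of 9 were below control with the combination, by a median of -0.28. Dpp4, which trims several ligands, differed by -0.68 ± 0.20 from triptolide, Tnfrsf1a, a Tnf receptor, by -0.47 ± 0.14, and Adam17, a sheddase of Cx3cl1, by -0.42 ± 0.12 between aspirin and control (limma adjusted p of 0.353, 0.353 and 1). The smallest interaction p values were those of Pf4, at -1.7 ± 0.65, and Ccr9, the Ccl25 receptor, at 0.41 ± 0.16, with limma adjusted p of 0.895 for both.

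**Figure D5:**
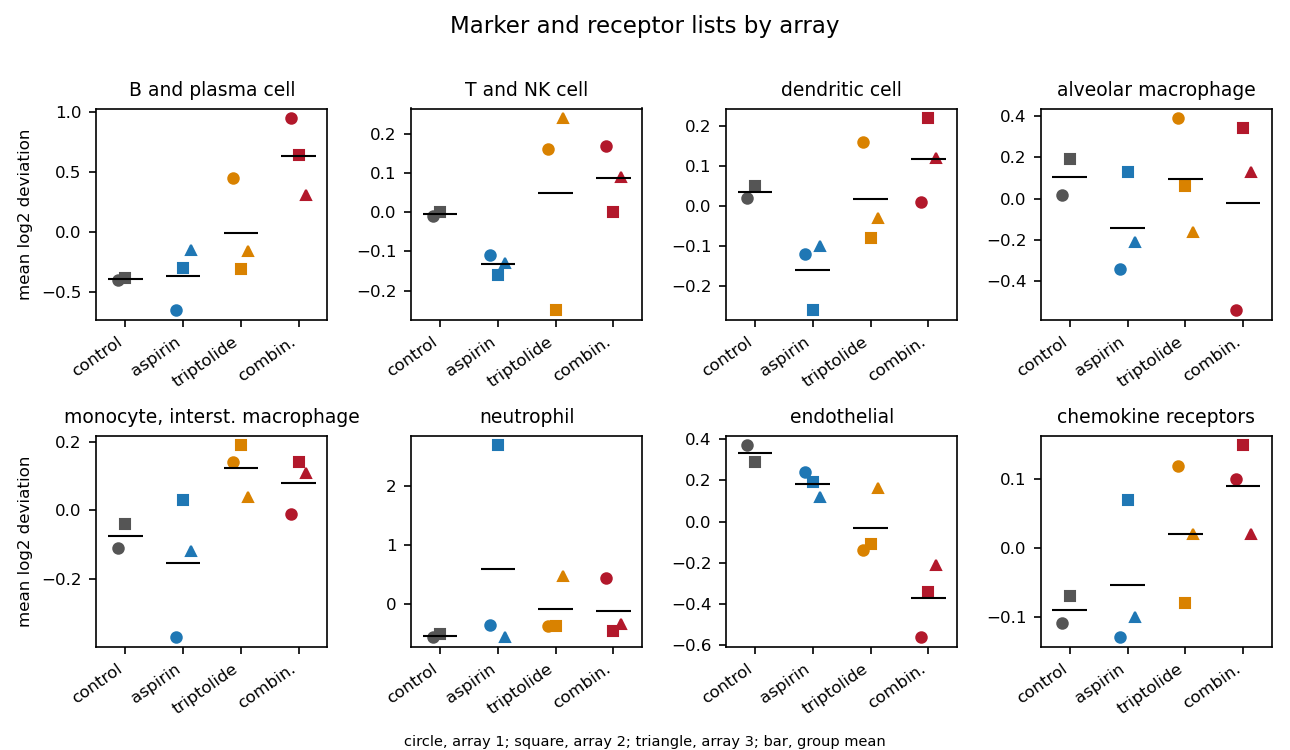
Mean log2 deviation from the mean over the 11 arrays (y axis) of 7 marker lists and of the chemokine receptors, by array and treatment group, with a bar at the group mean. As list means, B and plasma cell markers are highest on combination 1 at 0.95 and endothelial markers are below control on all combination arrays. The mean of the neutrophil markers stands out only on aspirin 2 at 2.69, though not every member is highest there.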

How the data were processed

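Biotin-labelled target made from total lung RNA was read on Affymetrix arrays, and the authors deposited log2 expression values over 35556 rows. The submitters' processing notes name RMA and Partek, with no role, version or filter, and no detection call was used here. Precision is limited by the number of arrays. GEO's platform annotation, which can be old, gave 1 symbol to 21789 rows, several to 1621 (not tested) and none to 12146; taking the highest-mean row per symbol left 19938 genes. Groups were compared with limma 3.58.1 under R 4.3.3 (lmFit, eBayes) on the 11 arrays together, with 7 residual and 3.68 prior degrees of freedom, no covariate and no filter. Tests were two-sided, with Benjamini-Hochberg adjustment over all genes at a threshold of 0.05, and the code was tested on simulated data. The ligands, lists and rules were chosen with earlier results of these data known. Values on every array were printed for the 3 ligands with the smallest p in each comparison, the 5 highest and 3 lowest in mean, and the 5 widest in group means and in spread within groups; Ccl19 and Cx3cl1 were added after their values were seen. Of the pathway lists the 2 genes with the smallest p per comparison were named. Promoter windows are RefSeq's (GRCm38.p6), limited to the 250 bases before the start. Alternatives were median centring, quantile normalization, averaging a gene's rows, dropping the lowest 30% of genes, array weights, no moderation, a Y-linked covariate, a replicate block, only the groups compared, and each array left out.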

Additional observations from a re-analysis of the deposited data

Results flagged for a closer look

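In 3 ligands every aspirin array lay on one side of the control mean while every combination array lay on the opposite side of the triptolide mean, as in 5.52% of all genes. The interaction, which is the difference between those effects, was 0.67 ± 0.32 (log2 ± SE) for Ccl5, 0.49 ± 0.20 for Cxcl3 and 0.22 ± 0.13 for Cxcl12. Xcl1 was the 1 ligand with every triptolide array on one side of the control mean and every combination array on the opposite side of the aspirin mean, as in 6.72% of genes, and its interaction was 0.10 ± 0.12. The limma adjusted p was 0.895 for the first 3 and 0.901 for Xcl1. Aspirin arrays also differ from control in Y-linked genes, and adjusted for that level the interaction turned in Ccl5, to -0.41, and in Cxcl3, to -0.21; no such value was taken for Cxcl12 and Xcl1.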

How the results depend on the processing

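The number of ligands past the adjusted threshold was 0 in each of the 7 comparisons, and stayed 0 except under array weights and, for combination minus control, the Y-linked covariate. Array weights passed 7 ligands (14.7% of all genes) for aspirin minus control, 1 (1.69%) for triptolide minus control, 16 (19.2%) for combination minus control, 18 (32.5%) for combination minus aspirin, 17 (24.9%) for combination minus triptolide, 12 (34.4%) for aspirin minus triptolide and 8 (10.7%) for the interaction; their estimation stopped before converging. The Y-linked covariate passed 2 (0.481%). The cause was not tested. With each array left out the counts were 0 to 0, also without combination 3, where 4.49% of all genes passed for combination minus control and 3.53% for combination minus aspirin; with arrays centred on their medians 0 ligands and 1.68% of genes passed for the former. The fit with the replicate number as a block passed 0 ligands in all 7 comparisons. It passed 0.762% of all genes for combination minus control, where the main fit passed 0%. The deviations of arrays from their group means, over all genes, correlated over 0.1 in 5 of 15 same-numbered pairs (-0.14 to 0.33). The 2 controls deviate by equal and opposite amounts, so their pairs are not separate evidence. With 2 or 3 arrays in a group, these values cannot settle whether the numbers pair the arrays. The filter on the lowest 30% of genes left 22 of the 31 ligands. Among those it dropped were Ccl12, Ccl28, Cxcl2 and Cxcl3, with means over all arrays of 6.59, 6.96, 7.08 and 7.22. The differences given above for these ligands therefore have no value under that setting. Of 768 recomputed values of 41 ligand differences, 760 kept their sign. The 8 that reversed did so with the Y-linked covariate: Ccl5 at 0.20 and Ccl17 at 0.41 for aspirin minus control, Ccl8 at -0.03, Ccl17 at -0.18 and Cxcl9 at -0.13 for combination minus aspirin, and Ccl5 at -0.41, Cxcl2 at -0.23 and Cxcl3 at -0.21 for the interaction. Within groups that covariate differed mainly between triptolide 1 (6.55) and triptolide 2 and 3 (9.36 and 9.08), so these values lean on 1 array. The cause was not tested. For combination minus control Ccl8 ran from 1.38 to 1.63, with limma adjusted p from 0.00895 to 0.667, and Cxcl13 from 1.4 to 1.76, with limma adjusted p from 0.00989 to 0.677.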
